A study of Mus musculus with 24 samples.

Results

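The genes described here are 35 genes of cholesterol and fatty acid synthesis and of its control, out of 56791 genes counted. They were taken by symbol from the table of read counts, and all 35 were found. The table holds 24 bulk RNA-seq libraries in 8 groups of 3. Regulatory T cells (Tregs, CD4+ T cells that restrain other lymphocytes and carry the transcription factor Foxp3) and B cells were sorted from the tumour or from the draining lymph node of mice bearing B16-F0, a transplantable mouse melanoma. Groups labelled WT came from Foxp3-Cre mice, and groups labelled KO came from Foxp3-Cre Appl2 f/f mice, so that the Cre transgene is common to all groups. Appl2 encodes an endosomal adaptor protein. Cre is driven by Foxp3, a gene of Tregs, and the age of the mice is not stated. Nor is it stated that replicate libraries are separate animals, so p-values measure the spread between these libraries, which may be technical.

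Cells build cholesterol from acetyl-CoA through mevalonate, isoprenoids, squalene and lanosterol, and build fatty acids from the same acetyl-CoA through malonyl-CoA. The genes of both routes are switched on by sterol regulatory element binding proteins (SREBPs), which Scap carries out of the endoplasmic reticulum when membrane cholesterol is low and which Insig proteins hold back when it is high. Liver X receptors (LXRs) answer to oxysterols, which accumulate when cholesterol is plentiful, and switch on genes of cholesterol export. Both programmes therefore read opposite states of sterol supply in textbook physiology, and proliferating T cells are known to draw on sterol and fatty acid synthesis for membranes. Among the 35 genes, 27 are treated here as SREBP targets and 3 as LXR targets (Abca1, Abcg1 and Mylip). The other 5 are the regulators Srebf1, Srebf2, Scap and Insig2 and the receptor gene Nr1h2, which encodes LXR beta.

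Libraries held 6245822 to 16239055 counts, and 18025 to 21217 genes had at least 1 read. Foxp3 stood at 275 to 475 CPM (counts scaled to the library total, with TMM scaling) in Treg libraries and at 6.60 to 12.3 CPM in B cell libraries. The 8 B cell markers summed to 3257 to 4387 CPM in B cell libraries. Appl2, the labelled target, was lower in libraries labelled KO in tumour Tregs (log2 fold change -1.12 ± 0.10, SE), in tumour B cells (-1.53 ± 0.16) and in lymph node B cells (-1.08 ± 0.13). In lymph node Tregs it was 26.8, 22.9 and 28.5 CPM in libraries labelled KO against 26.3, 22.1 and 18.6 CPM in those labelled WT. At 0.23 ± 0.12 on the log2 scale (adjusted p = 0.159 in edgeR) it was not called and its sign ran against the label, and the fall in B cells stands in a cell type that does not normally express Foxp3. Genotypes are therefore given below as labels. In tumour Tregs Foxp3 itself was lower under the KO label (-0.70 ± 0.05). In tumour B cells, 2 libraries stood apart from their groups, replicate 1 with the KO label and replicate 2 with the WT label. Their chi-square per gene against the group's other replicates was 7.34 to 10.5, beside a median of 3.44 over all replicate pairs. Of the marker genes set beside results below, those without a read in a group were Mlana in lymph node B cells of both labels, with Sox10, Tyr and Tyrp1 also under the KO label (melanoma), Fcgr1 in lymph node B cells labelled WT and C1qc in tumour Tregs labelled KO (macrophage). Among stromal and endothelial markers they were Glycam1 in all tumour groups, Pdgfrb in lymph node Tregs and tumour B cells labelled KO, and Col1a1 in the latter.

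The start of a gene shows which regulatory motifs lie near it, and 6 promoters are printed. They belong to 4 of the genes that rose in 3 or 4 of the KO against WT comparisons, and to 2 LXR targets. Each run is the 250 bases before the RefSeq start site on the gene's own strand, build GRCm38.p6. Capitals mark TCACNCCAC (the core letters of the sterol regulatory element), CCAAT (the box bound by NF-Y, a partner of SREBPs, or ATTGG where it lies on the other strand) and CACGTG (the E-box). Their positions are chr13:119690101-119690350 on the plus strand for Hmgcs1, chr5:4104698-4104947 on the minus strand for Cyp51, chr15:82147019-82147268 on the plus strand for Srebf2, chr5:28071162-28071411 on the plus strand for Insig1, chr4:53159896-53160145 on the minus strand for Abca1 and chr13:45389492-45389741 on the plus strand for Mylip.
Hmgcs1: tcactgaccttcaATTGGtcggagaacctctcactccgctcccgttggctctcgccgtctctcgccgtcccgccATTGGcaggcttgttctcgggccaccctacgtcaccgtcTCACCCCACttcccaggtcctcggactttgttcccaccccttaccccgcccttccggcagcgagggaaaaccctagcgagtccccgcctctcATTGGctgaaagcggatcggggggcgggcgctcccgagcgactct
Cyp51: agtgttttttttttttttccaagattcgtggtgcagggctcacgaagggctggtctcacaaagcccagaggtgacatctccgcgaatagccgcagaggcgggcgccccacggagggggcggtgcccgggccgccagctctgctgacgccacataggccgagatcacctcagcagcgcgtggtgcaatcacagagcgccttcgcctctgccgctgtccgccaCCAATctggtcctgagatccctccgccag
Srebf2: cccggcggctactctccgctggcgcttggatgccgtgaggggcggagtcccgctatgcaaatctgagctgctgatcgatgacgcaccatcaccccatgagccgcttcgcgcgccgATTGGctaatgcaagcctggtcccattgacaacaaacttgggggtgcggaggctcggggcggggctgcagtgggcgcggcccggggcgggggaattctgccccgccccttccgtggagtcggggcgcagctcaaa
Insig1: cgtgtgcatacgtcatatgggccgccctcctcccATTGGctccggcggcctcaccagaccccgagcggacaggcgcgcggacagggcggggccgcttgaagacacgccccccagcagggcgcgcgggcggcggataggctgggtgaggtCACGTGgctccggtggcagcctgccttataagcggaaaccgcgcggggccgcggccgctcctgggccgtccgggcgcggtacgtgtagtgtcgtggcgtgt
Abca1: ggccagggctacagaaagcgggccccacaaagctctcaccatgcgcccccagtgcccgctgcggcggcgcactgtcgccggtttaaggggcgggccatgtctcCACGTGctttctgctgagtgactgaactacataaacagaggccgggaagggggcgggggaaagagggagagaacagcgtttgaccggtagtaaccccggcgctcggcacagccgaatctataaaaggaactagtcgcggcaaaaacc
Mylip: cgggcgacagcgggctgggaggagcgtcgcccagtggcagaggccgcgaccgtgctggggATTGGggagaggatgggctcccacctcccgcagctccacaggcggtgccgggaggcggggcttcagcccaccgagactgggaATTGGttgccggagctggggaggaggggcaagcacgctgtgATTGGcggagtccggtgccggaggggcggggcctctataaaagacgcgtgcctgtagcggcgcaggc

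In the Hmgcs1 run the sterol element begins at base 114, counted from the 5′ end, and 3 CCAAT boxes flank it. The Cyp51, Srebf2 and Insig1 runs each hold 1 CCAAT box, and the Insig1 run also holds an E-box. The Abca1 run holds an E-box and no CCAAT box, whereas the Mylip run holds 3 CCAAT boxes. RefSeq gave a promoter for 27 of the 35 genes (8 had no entry: Scd1, Scd2, Fads1, Stard4, Sqle, Fdps, Fdft1 and Abcg1). Over 300 bases (250 before and 50 after the start, both strands), TCACNCCAC was found in 1 of the 27, against 1.44% of 27025 genes. CCAAT was found in 21 of 27 (17 of 20 SREBP targets and 1 of 2 LXR targets), against 41.1% of genes. CACGTG was found in 6 of 27 against 8.09% of genes. The GC box GGGCGG, bound by Sp1, was found in 22 of 27 against 38.2% of genes. The promoter of Nr1h2, which rose in all 4 KO against WT comparisons and is not printed, holds none of these motifs. Each motif was searched on its own, so matches of different motifs may overlap, and a match of letters says nothing of binding in these cells.

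The 35 genes differed widely in how much they varied among the 8 groups. Acly, which makes cytosolic acetyl-CoA from citrate, had group means between 83.8 and 105.5 CPM, 1.26-fold apart. Fasn, the fatty acid synthase, spanned 1.31-fold, Scap 1.39-fold and Srebf1, which encodes the SREBP that favours fatty acid genes, 1.46-fold. At the other end stood Scd1, a stearoyl-CoA desaturase, at 194-fold, Abca1, which pumps cholesterol to lipoproteins, at 52.5-fold, the fatty acid elongase Elovl6 at 17.9-fold and Mylip, an E3 ligase that marks lipoprotein receptors for breakdown, at 16.1-fold. Of the sterol enzymes, Cyp51, the lanosterol demethylase, spanned 6.45-fold and Idi1, the isopentenyl diphosphate isomerase, 5.08-fold.

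Levels of different genes are compared here per kilobase of exon (RPKM, group means). In lymph node B cells labelled WT, Scd1 led the 35 genes at 178 RPKM, followed by Mylip at 69.8, Pmvk at 23.2, Acly at 18.7 and Abca1 at 17.4 RPKM. In tumour Tregs labelled WT the order was different, with Pmvk (phosphomevalonate kinase) at 19.8, Ebp (a sterol isomerase) at 19.2, Acly at 17.7, Nr1h2 at 15.1 and Hmgcs1 (the cytosolic HMG-CoA synthase) at 13.7 RPKM. Scd1 was at 1.10 RPKM there. Lss, Tm7sf2, Dhcr7 and Hsd17b7, enzymes of the route after squalene, and Fads1 stayed under 1 RPKM in all 8 groups.

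Libraries labelled KO were first compared with those labelled WT in each cell type and tissue. The 4 comparisons share no library. Groups without overlap were common over all genes tested: 8707 of 14442 in tumour Tregs and 5574 of 14613 in lymph node Tregs. For B cells the counts were 6905 of 13483 (tumour) and 4793 of 13608 (lymph node). Among the members they were 19 of 35, 15 of 35, 21 of 34 and 13 of 34 in that order. In all 4 of them the same 5 genes were called higher: Insig1, Cyp51, Srebf2, Scd1 and Nr1h2, out of 34 of the 35 tested in all 4. Of all 12099 genes tested in all 4, 4.52% were called higher in each. Some of these calls carry limits. For Scd1 in Tregs labelled KO, the B cell marker share explained below comes to 53.8 of 56.0 CPM (lymph node) and 13.1 of 15.0 CPM (tumour). The part of B cell RNA in the Scd1 calls was not tested. The Nr1h2 call in lymph node B cells was close to the threshold. Hmgcs1 was called higher in 3, Idi1, Sqle, Msmo1, Abcg1 and Mylip in 2, 7 genes in 1 and 17 genes in none. Lower calls fell to 9 genes: Elovl6 and Fads2 in 2 comparisons, and Mvd, Idi1, Tm7sf2, Insig2, Acaca, Scd2 and Mylip in 1. Of these Idi1, Acaca, Scd2 and Mylip were called in both directions. None of the 34 was called lower in all 4, beside 1.84% of all genes. Since these are bulk libraries, fewer cells of a type and less RNA per cell cannot be told apart.

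**Figure D1:**
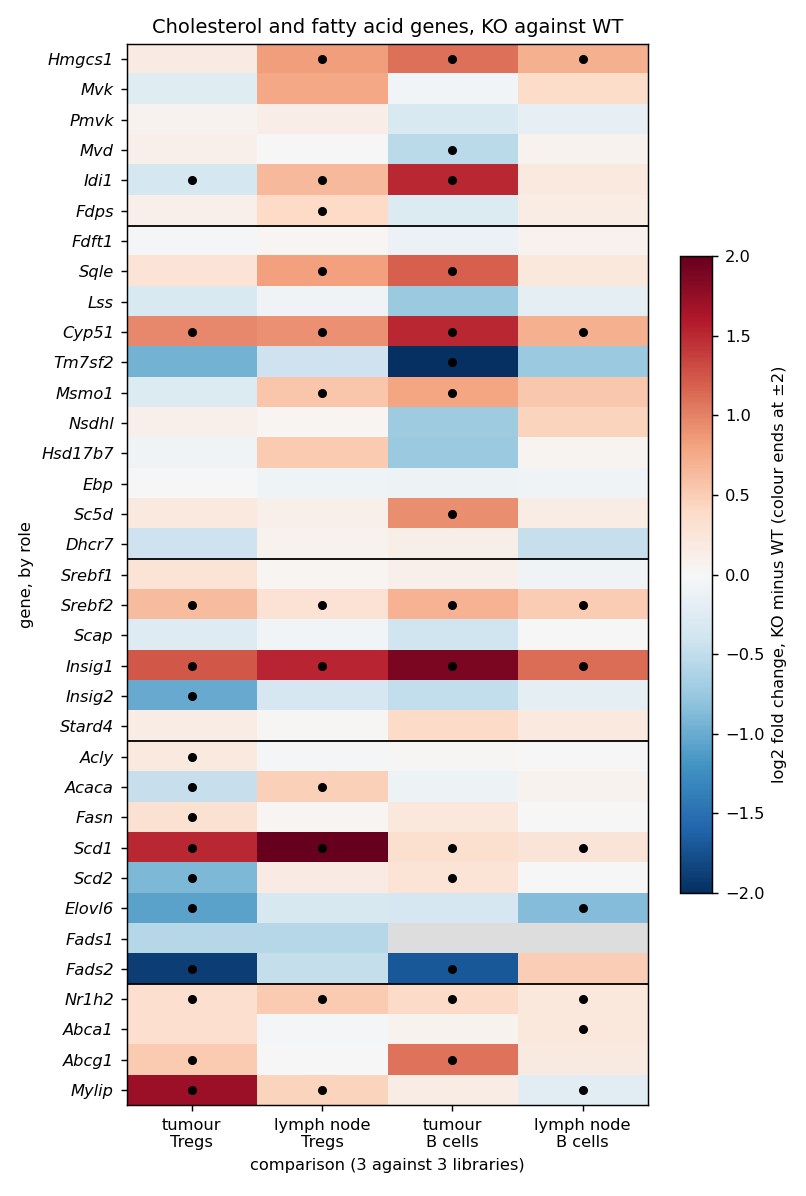
Log2 fold change of the 35 genes, KO-labelled minus WT-labelled, in tumour Tregs, lymph node Tregs, tumour B cells and lymph node B cells (3 against 3 libraries each; colour ends at 2 either way, grey is not tested). Dots mark an adjusted p under 0.05. Insig1, Cyp51, Srebf2, Scd1 and Nr1h2 carry a dot in all 4 columns, all towards higher. Scd1 in the Treg columns moved with B cell markers.

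Insig1, which retains the SREBP-Scap complex and is itself an SREBP target, had a larger log2 difference than Cyp51, Srebf2 and Hmgcs1 in each setting. In tumour Tregs it was 58.3, 60.4 and 57.8 CPM in libraries labelled KO against 26.7, 23.8 and 25.9 CPM in those labelled WT. In lymph node Tregs the values were 27.6, 33.2 and 29.9 CPM against 11.2, 11.0 and 9.54 CPM. The groups lay far apart in both tissues, and lymph node Tregs labelled KO stood slightly above tumour Tregs labelled WT. Tumour B cells held 43.2, 45.6 and 40.9 CPM against 16.3, 10.8 and 7.62 CPM, and lymph node B cells 21.7, 20.7 and 22.1 CPM against 12.3, 8.11 and 9.19 CPM. No library labelled KO fell within the range of its WT group. Listed in the order tumour Tregs, lymph-node Tregs, tumour and lymph-node B cells, the log2 differences were 1.24 ± 0.09, 1.52 ± 0.12, 1.89 ± 0.21 and 1.12 ± 0.15 (edgeR, adjusted p = 2.73e-14, 1.61e-11, 6.77e-06 and 9.64e-07).

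Cyp51 rose in the same 4 settings. Its values were 97.6, 85.2 and 106 CPM against 41.5, 50.5 and 59.1 CPM in tumour Tregs, and 36.6, 32.9 and 35.3 CPM against 16.1, 19.4 and 19.6 CPM in lymph node Tregs. Tumour B cells held 36.2, 51.2 and 40.8 CPM against 15.6, 16.6 and 12.7 CPM, and lymph node B cells 27.2, 25.3 and 21.0 CPM against 13.6, 15.9 and 15.3 CPM. Again no pair of groups overlapped, although the WT-labelled tumour Tregs were themselves spread. The differences were 0.97 ± 0.09, 0.92 ± 0.10, 1.51 ± 0.16 and 0.71 ± 0.13 on the log2 scale in that order (edgeR, adjusted p = 8.95e-12, 2.45e-08, 5.63e-06 and 0.000103).

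Srebf2 encodes the SREBP that favours sterol genes. Its values were 120.0, 108 and 124 CPM against 77.5, 80.1 and 76.0 CPM in tumour Tregs and 69.9, 70.3 and 67.7 CPM against 56.0, 54.3 and 58.9 CPM in lymph node Tregs. Tumour B cells held 116, 129.5 and 139 CPM against 74.5, 86.0 and 76.3 CPM, and lymph node B cells 123, 120.4 and 122 CPM against 91.3, 78.5 and 87.4 CPM. Every KO-labelled library lay above every WT-labelled one of its comparison. The log2 differences of 0.63 ± 0.07, 0.29 ± 0.07, 0.69 ± 0.09 and 0.50 ± 0.06 were smaller than those of Insig1 and Cyp51 (edgeR, adjusted p = 2.9e-10, 0.00112, 4.95e-05 and 7.79e-07). Its relative Srebf1 passed in none of the 4, with differences from -0.07 ± 0.12 in lymph node B cells to 0.27 ± 0.12 in tumour Tregs. Scap passed in none either.

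Hmgcs1, the entry step of the mevalonate route, rose in 3 of the 4. In lymph node Tregs it was 31.4, 35.1 and 31.8 CPM against 18.1, 18.7 and 18.3 CPM (0.83 ± 0.10). In tumour B cells it was 40.4, 46.2 and 46.3 CPM against 13.1, 28.3 and 20.7 CPM (1.10 ± 0.21), and for lymph node B cells the values were 32.9, 32.6 and 34.7 CPM against 20.7, 18.3 and 21.8 CPM (0.72 ± 0.11). None of these groups overlapped (edgeR, adjusted p = 9.31e-08, 0.000691 and 6.72e-06). In tumour Tregs it was already high in libraries labelled WT, at 60.2, 61.2 and 66.7 CPM, against 69.5, 67.6 and 69.2 CPM in those labelled KO. The 2 groups did not overlap there, but at 0.16 ± 0.07 the gene was not called (adjusted p = 0.061 in edgeR). Of the exon bases of Hmgcs1, 12.1% lie under an antisense gene in the annotation, and whether reads were counted by strand is not stated.

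**Figure D2:**
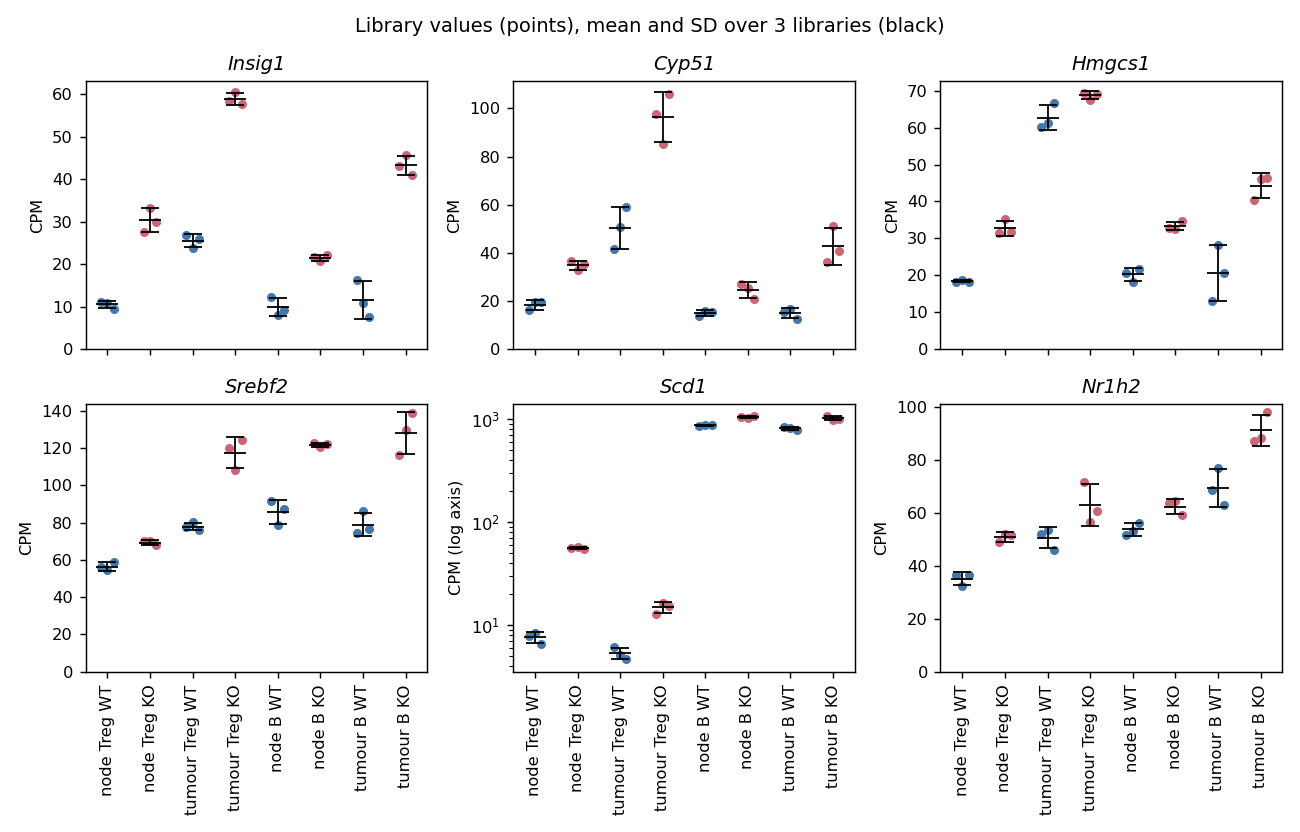
Level (CPM) of Insig1, Cyp51, Hmgcs1, Srebf2, Scd1 and Nr1h2 in the 24 libraries (points, WT-labelled blue and KO-labelled red), with mean and SD of 3 libraries; the Scd1 axis is logarithmic. Red points stand above the blue points of the same cell type and tissue in every panel, least so for Hmgcs1 in tumour Tregs, where the means are 62.7 and 68.7 CPM.

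Nr1h2 (chromosome 7, 44199040 to 44203375, minus strand, GRCm39) was the LXR-side gene that rose in all 4 settings. In tumour Tregs its 71.5, 56.4 and 60.5 CPM compared with 52.1, 53.6 and 46.1 CPM, and in lymph node Tregs its 48.8, 52.0 and 51.7 CPM with 36.4, 32.1 and 36.6 CPM. In tumour B cells 87.0, 88.1 and 97.9 CPM stood against 68.5, 76.8 and 62.7 CPM, and in lymph node B cells 63.5, 64.2 and 59.2 CPM against 51.7, 53.0 and 56.3 CPM. The groups were close but did not overlap. The log2 differences were 0.34 ± 0.09, 0.53 ± 0.08, 0.39 ± 0.10 and 0.21 ± 0.08 (edgeR, adjusted p = 0.00108, 5.08e-06, 0.00618 and 0.0443).

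By role, the calls in lymph node Tregs went in 1 direction, though 11 of the 35 log2 fold changes lay below 0. Of the 35 genes 12 were called higher and 0 lower, where 13.8% of all genes tested were called higher and 11.5% lower. The mevalonate steps rose for 3 of 6 (Hmgcs1, Idi1 and Fdps, the farnesyl diphosphate synthase), the steps from squalene to cholesterol for 3 of 11 (Cyp51, the squalene epoxidase Sqle and the sterol methyl oxidase Msmo1), and fatty acid genes for 2 of 8 (Scd1 and Acaca, the acetyl-CoA carboxylase). B cell markers summed to 214 to 225 CPM with the KO label against 46.5 to 49.9 CPM, with 8 of 8 called higher. Their share, explained below, comes to 53.8 of the 56.0 CPM of Scd1 under the KO label. Sqle was at 6.99, 5.98 and 4.38 CPM against 3.27, 2.86 and 3.63 CPM. Its difference of 0.83 ± 0.23 passed (edgeR, adjusted p = 0.00795) but not without KO-labelled replicate 1, at 0.67 (adjusted p = 0.0859). Fdft1 (squalene synthase) and the later enzymes Ebp, Sc5d and Dhcr7 lay between -0.09 ± 0.08 and 0.11 ± 0.12 and did not pass. Stromal and endothelial markers summed to 109.8 to 125 CPM with the KO label against 273 to 316 CPM, with 8 of 9 called lower, and macrophage and monocyte markers to 91.6 to 98.0 against 37.2 to 37.9 CPM, with 1 of 7 tested called higher. The part of these lists and of the B cell markers in the result was not tested.

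In tumour Tregs 9 genes were called higher and 6 lower, where the shares over all genes were 27.3% and 27.2%, so the members' counts were near the background. None of the 6 mevalonate genes was called higher. Idi1 was lower, at 28.3, 31.4 and 30.8 CPM against 39.7, 38.1 and 40.7 CPM (-0.36 ± 0.10). Of the 11 later sterol genes only Cyp51 passed. Insig2, the second retention protein, went the other way from Insig1, at -1.01 ± 0.22 (edgeR, adjusted p = 0.000137). Fasn (0.31 ± 0.08) and Acly (0.20 ± 0.07) were slightly higher (edgeR, adjusted p = 0.00191 and 0.0152).

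Of the 8 fatty acid genes 4 fell in tumour Tregs. Scd2, a second desaturase isoform, was 29.4, 36.4 and 32.4 CPM in libraries labelled KO against 61.2, 67.8 and 58.7 CPM in those labelled WT (-0.90 ± 0.09, edgeR, adjusted p = 1.08e-10). Elovl6 was 19.96, 18.3 and 24.5 CPM against 39.7, 46.2 and 48.9 CPM (-1.07 ± 0.11, adjusted p = 1.69e-10). Fads2, the delta-6 desaturase, was 2.67, 2.48 and 3.52 CPM against 10.5, 11.4 and 11.0 CPM (-1.89 ± 0.23, adjusted p = 4.28e-09). All 3 were low in every KO-labelled library, with no overlap. Acaca was lower by a smaller amount, at -0.47 ± 0.13. Several marker lists moved in the same libraries. The 4 Treg markers, Foxp3 among them, summed to 2189 to 2254 CPM with the KO label against 3205 to 3312 CPM, with 4 of 4 called lower. The 7 melanoma markers summed to 2652 to 2861 CPM in WT-labelled tumour Tregs and to 45.3 to 54.6 CPM in KO-labelled ones, all 7 were called lower and none was at 0, and the 4 cycling genes summed to 2838 to 2897 CPM against 887 to 966 CPM, with all 4 called lower. CD8 T and NK cell markers summed to 179 to 194 CPM with the KO label against 24.7 to 30.5 CPM (6 of 6 called higher), and plasma cell markers to 412 to 432 against 169 to 179 CPM (4 of 5 higher). Macrophage and monocyte markers summed to 51.9 to 60.1 against 22.1 to 29.3 CPM (4 of 6 tested higher). The part of these lists in the falls was not tested.

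In tumour B cells 12 genes were called higher and 3 lower, beside 21.3% and 18.8% of all genes tested. Idi1 rose most among the mevalonate genes, from 5.75, 9.63 and 7.95 CPM to 18.4, 20.7 and 26.9 CPM (1.502 ± 0.22, edgeR, adjusted p = 9.6e-05). Sqle rose from 2.98, 3.31 and 4.29 CPM to 6.59, 10.6 and 7.40 CPM (1.19 ± 0.29, adjusted p = 0.00527). Neither pair of groups overlapped. Msmo1 (0.78 ± 0.25) and Sc5d, a sterol desaturase (0.94 ± 0.19), also rose, as did Scd2 (0.28 ± 0.10). The genes called lower were Tm7sf2, a sterol reductase that shares 12.1% of its exon bases with the gene Vps51, at -2.07 ± 0.55, Fads2 at -1.69 ± 0.49 and Mvd, the mevalonate diphosphate decarboxylase, at -0.53 ± 0.19. Fads2 was 2.98, 13.1 and 5.37 CPM in libraries labelled WT, and without the second of these its difference was -0.95 (edgeR, adjusted p = 0.11), while without KO-labelled replicate 3 it was -1.56 (adjusted p = 0.0569). Tm7sf2 was 1.70, 3.16 and 5.80 CPM there, and without the third it was -1.51 (adjusted p = 0.0874). Mvd kept its call only without KO-labelled replicate 3, and without each of the other libraries its adjusted p was 0.0569 to 0.129. Without both libraries that stand apart 13 genes were higher and 2 lower.

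Among the markers, T cell genes summed to 127 to 138 CPM in KO-labelled tumour B cells and 18.5 to 21.2 CPM in WT-labelled ones, 7 of 8 called higher. Measured against Tregs of the same tissue and label, this is 4.50% of their T cell marker level. The amounts that follow take all of this signal as Treg RNA. That share of the Treg level comes to 3.10 CPM of Hmgcs1, 4.34 of Cyp51, 2.65 of Insig1 and 5.29 of Srebf2. The means in KO-labelled tumour B cells were 44.3, 42.7, 43.2 and 128 CPM in that order. Treg markers summed to 45.9 to 52.4 CPM with the KO label against 25.7 to 34.9 CPM, with 1 of 4 called higher. CD8 T and NK cell markers summed to 35.1 to 44.1 CPM against 2.58 to 3.61 CPM, with 3 of 3 tested called higher. Levels of the sterol genes in T cells other than Tregs were not measured. Cycling genes summed to 617 to 786 CPM against 223 to 247 CPM, with 4 of 4 called higher, and melanoma markers to 38.9 to 42.9 CPM against 726 to 836 CPM, with 7 of 7 called lower and none at 0. Macrophage and monocyte markers summed to 44.0 to 53.4 CPM against 184 to 200.5 CPM, with 9 of 10 called lower, and stromal and endothelial markers to 170.0 to 184 CPM against 221 to 229.9 CPM, with 4 of 5 tested called lower. The part of these lists in the result, the T cell list among them, was not tested.

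In lymph node B cells 7 genes were called higher and 2 lower, beside 11.0% and 10.1% of all genes tested. The 7 are the 5 genes common to all comparisons, Hmgcs1 and Abca1. The cycling genes summed to 929 to 987 CPM in libraries labelled KO and to 914 to 970 CPM in those labelled WT. Those sums overlapped. T cell markers summed to 29.8 to 32.7 CPM with the KO label against 54.5 to 65.8 CPM, with 6 of 8 called lower, and the stromal and endothelial markers to 207 to 226 CPM against 307 to 333 CPM, with 5 of 6 tested called lower. The part of these lists in the result was not tested. Elovl6 was lower, at 1.72, 2.92 and 2.90 CPM against 3.88, 6.46 and 3.33 CPM (-0.86 ± 0.31), a call that was lost without KO-labelled replicate 1 or 3 (adjusted p = 0.148 and 0.0514 in edgeR) and without WT-labelled replicate 1 or 2 (0.0546 and 0.351).

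Scd1 (chromosome 19, 44382894 to 44396318, minus strand, GRCm39, counted over its exons) was abundant in B cells and far lower in Tregs. In lymph node B cells it was 1037, 1025 and 1061 CPM with the KO label against 861, 881 and 874 CPM with the WT label, and in tumour B cells 1074, 981 and 1002 CPM against 834, 823 and 786 CPM. The differences of 0.25 ± 0.04 and 0.32 ± 0.07 passed, with no overlap (edgeR, adjusted p = 2.04e-05 and 0.00188). In Tregs the levels were far lower and the differences larger. Lymph node Tregs held 56.0, 57.5 and 54.4 CPM against 7.89, 8.49 and 6.62 CPM (2.87 ± 0.10), and tumour Tregs 13.0, 16.6 and 15.5 CPM against 6.14, 5.21 and 4.76 CPM (1.51 ± 0.18; edgeR, adjusted p = 3.86e-19 and 6.36e-09).

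These Treg values moved with B cell markers. The 8 B cell markers summed to 214 to 225 CPM in lymph node Tregs labelled KO, 46.5 to 49.9 CPM in those labelled WT, 46.2 to 47.9 CPM in tumour Tregs labelled KO and 3.91 to 5.62 CPM in those labelled WT, with 8 of 8 called higher under the KO label in both tissues and none at 0 in any group. Taken as a share of the level in B cells of the same tissue and label, that is 5.17 ± 0.14%, 1.10 ± 0.04%, 1.28 ± 0.02% and 0.146 ± 0.026% (SD, n = 3). The same shares of the B cell level of Scd1 come to 53.8, 9.61, 13.1 and 1.19 CPM, where 56.0, 7.67, 15.0 and 5.37 CPM were measured. For lymph node Tregs, 2.18 ± 0.96 CPM is left under the KO label and -1.94 ± 0.72 CPM under the WT label, and for tumour Tregs 1.96 ± 1.64 CPM and 4.18 ± 0.76 CPM. Under the KO label, Scd1 per B cell marker CPM was 0.254 ± 0.004 in Tregs and 0.244 ± 0.007 in B cells of the lymph node, and 0.318 ± 0.034 and 0.279 ± 0.041 in the tumour. Under the WT label it was 0.161 ± 0.016 and 0.202 ± 0.001 in the lymph node, and 1.13 ± 0.25 and 0.245 ± 0.005 in the tumour. The ratio in WT-labelled tumour Tregs thus stood far above that of their B cells.

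**Figure D3:**
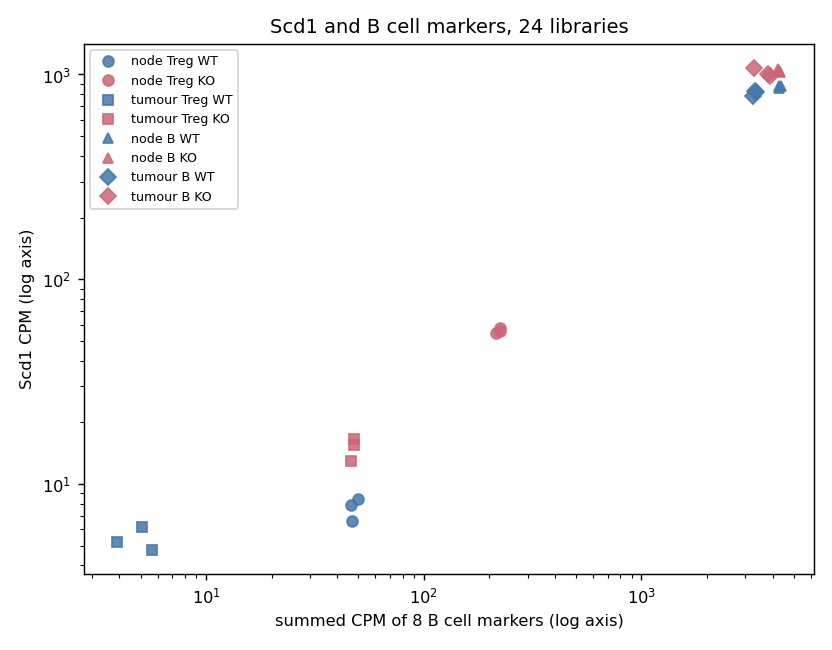
Scd1 level against the summed level of 8 B cell markers in each of the 24 libraries (CPM, both axes logarithmic; blue WT-labelled, red KO-labelled). The Treg libraries with the most B cell marker signal, those of the lymph node labelled KO at 214 to 225 CPM, are also those with the most Scd1, at 54.4 to 57.5 CPM.

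The same computation can be set beside other genes that rose in Tregs. In lymph node Tregs labelled KO the shares come to 1.11 CPM of the 30.3 CPM of Insig1, 1.26 of the 34.9 CPM of Cyp51, 1.73 of the 32.8 CPM of Hmgcs1, 6.29 of the 69.3 CPM of Srebf2, 3.22 of the 50.8 CPM of Nr1h2 and 10.1 of the 57.6 CPM of Mylip. For Srebf2 the means were 69.3 CPM with the KO label and 56.4 CPM with the WT label as measured, and the remainders are 63.0 ± 1.22 CPM and 55.4 ± 2.35 CPM.

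The tissue comparison asked how tumour Tregs differ from those of the draining lymph node, within the WT label. Sterol synthesis genes were higher in the tumour and LXR targets were lower. Of the 35 genes 21 were called higher and 3 lower, where 21.4% and 19.9% of all genes tested were called. All 6 mevalonate genes rose, from Mvd at 0.35 ± 0.12 to Idi1 at 1.85 ± 0.12. Of the 11 genes from squalene to cholesterol 7 rose, from Ebp at 0.29 ± 0.09 to Sqle at 1.91 ± 0.21, and Tm7sf2, Nsdhl, Sc5d and Dhcr7 did not pass. Insig1 rose by 1.27 ± 0.13, Insig2 by 0.65 ± 0.19, Srebf2 by 0.46 ± 0.07 and Stard4, a carrier of cholesterol between membranes, by 0.37 ± 0.09.

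Single values show the distance between the tissues. Over all genes tested, 7149 of 14504 also had groups without overlap. Hmgcs1 went from 18.1, 18.7 and 18.3 CPM in the lymph node to 60.2, 61.2 and 66.7 CPM in the tumour (1.77 ± 0.09, edgeR, adjusted p = 3.45e-17). Idi1 went from 12.4, 9.44 and 11.0 CPM to 39.7, 38.1 and 40.7 CPM (adjusted p = 7.56e-15), and Sqle from 3.27, 2.86 and 3.63 CPM to 14.4, 9.59 and 12.9 CPM (adjusted p = 4e-09). No tumour library came near a lymph node library for these enzymes. Hsd17b7, a late sterol reductase, rose by 1.76 ± 0.41 from a level under 1 CPM. Fatty acid genes were divided: Fads2 (2.80 ± 0.25), Elovl6 (1.40 ± 0.11) and Acaca (0.56 ± 0.13) rose, while Fasn, Acly, Scd1, Scd2 and Fads1 did not pass.

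The 3 LXR targets all fell. Abca1 went from 36.8, 29.0 and 32.3 CPM in the lymph node to 4.52, 4.65 and 4.95 CPM in the tumour (-2.79 ± 0.15, edgeR, adjusted p = 3.58e-17). Abcg1, which exports cholesterol to high-density lipoprotein, went from 39.2, 41.9 and 42.2 CPM to 14.0, 12.6 and 12.6 CPM (-1.66 ± 0.11, adjusted p = 2.29e-14). Mylip went from 41.1, 43.6 and 42.5 CPM to 12.8, 13.8 and 15.3 CPM (-1.60 ± 0.11, adjusted p = 3.68e-14). All tumour libraries lay below all lymph node libraries. Nr1h2 itself rose by 0.53 ± 0.09. Stromal and endothelial markers summed to 96.8 to 103 CPM in the tumour against 273 to 316 CPM in the lymph node, with 9 of 9 called lower, and their part in the falls was not tested. B cells express Abca1 and Mylip at a high level, and the B cell share of the lymph node Tregs labelled WT, 1.10%, comes to 1.99 CPM of Abca1 and 2.49 CPM of Mylip.

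The melanoma markers were high in the tumour group of this comparison, with a sum of 2652 to 2861 CPM against 22.5 to 82.2 CPM in the lymph node and 7 of 7 called higher, and the cycling genes summed to 2838 to 2897 CPM against 2258 to 2597 CPM. The KO-labelled Tregs, whose libraries are all different, had a smaller melanoma contrast, with a sum of 45.3 to 54.6 CPM in the tumour and 30.8 to 37.8 CPM in the lymph node. Their cycling sum was lower in the tumour, at 887 to 966 CPM against 2270 to 2321 CPM. There, 17 of 27 SREBP targets were called higher and 3 lower, and all 3 LXR targets were lower, where 28.6% of all genes tested were called higher and 27.9% lower. Of the 21 genes higher under the WT label, 18 were also higher under the KO label, which is 85.7% of the first list and 90% of the second. The same overlap over all genes tested was not computed. The part of the melanoma and cycling lists in either contrast was not tested. Hmgcs1 rose by 1.09 ± 0.08, Cyp51 by 1.48 ± 0.08 and Sqle by 1.34 ± 0.18, and Abca1 fell by 2.45 on the log2 scale. Scd1 (-1.88 ± 0.10), Scd2 (-1.12 ± 0.08) and Acaca (-0.40 ± 0.12) were lower in the tumour under the KO label, and for Scd1 the B cell marker sum fell alongside, from 221 to 47.2 CPM.

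**Figure D4:**
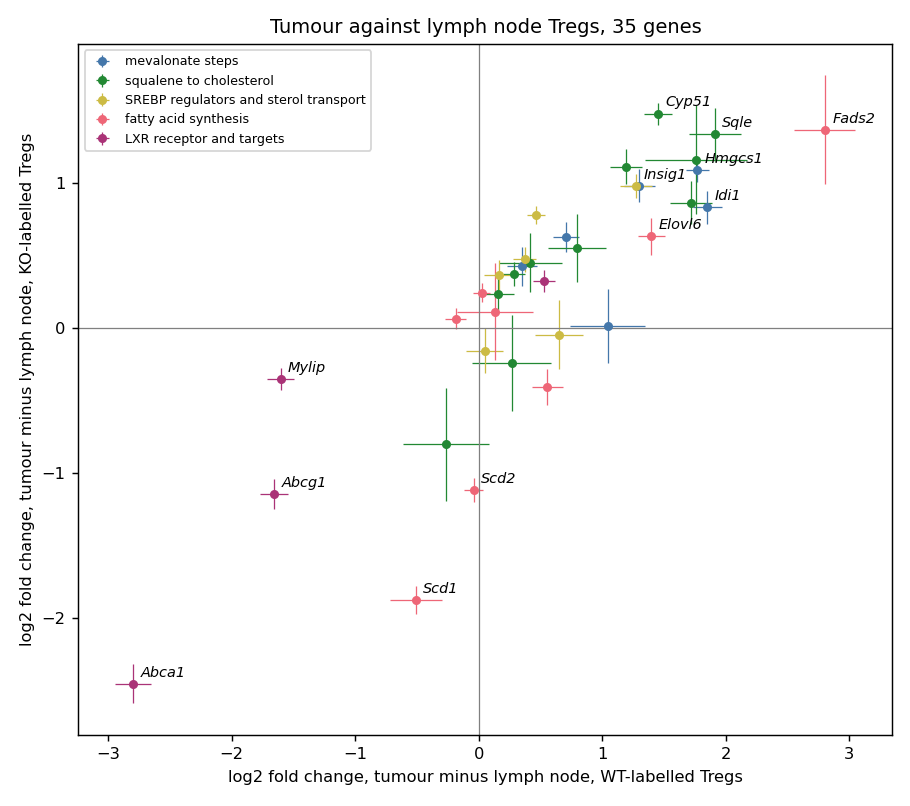
Log2 fold change (tumour minus lymph node, with SE) of the 35 genes in Tregs labelled WT (horizontal) and labelled KO (vertical), coloured by role; each axis rests on its own 6 libraries. Most sterol genes lie to the upper right, with Cyp51 at 1.45 and 1.48, and Abca1 lies farthest to the lower left, at -2.79 and -2.45.

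In B cells labelled WT the tissue comparison gave few calls among these genes: 3 were higher in the tumour and 6 lower, where 15.7% and 14.3% of all genes tested were called. The higher ones were Fads2, Nr1h2 and Abca1. Abca1 was 235, 232 and 236 CPM in the tumour against 179, 174 and 187 CPM in the lymph node (0.39 ± 0.05, edgeR, adjusted p = 1.98e-05), a direction opposite to that in Tregs. Abcg1 was lower, at 32.5, 25.4 and 24.7 CPM against 48.7, 41.9 and 44.5 CPM (-0.69 ± 0.11), as was Mylip by a small amount (-0.18 ± 0.05). Among the lower genes were 3 of fatty acid synthesis, Acaca (-0.47 ± 0.12), Fasn (-0.28 ± 0.09) and Acly (-0.22 ± 0.07), and Idi1 (-0.70 ± 0.21). None of the 11 genes from squalene to cholesterol passed. Beside these calls, macrophage and monocyte markers summed to 184 to 200.5 CPM in the tumour against 24.7 to 28.0 CPM in the lymph node (10 of 10 called higher), melanoma markers to 726 to 836 against 15.4 to 20.2 CPM (7 of 7 higher; Mlana had no read in the lymph node group) and plasma cell markers to 871 to 1063 against 209 to 228 CPM (5 of 5 higher). Cycling genes summed to 223 to 247 against 914 to 970 CPM (4 of 4 lower), T cell markers to 18.5 to 21.2 against 54.5 to 65.8 CPM (7 of 7 tested lower), and stromal and endothelial markers to 221 to 229.9 against 307 to 333 CPM (6 of 7 tested lower). Their part in these calls was not tested. Several of these calls were lost when 1 library was left out (edgeR): Idi1 without tumour replicate 1 or lymph node replicate 2 or 3 (adjusted p = 0.0599 to 0.0832), Acaca without lymph node replicate 1 (0.0678), Fasn without tumour replicate 1 or lymph node replicate 1 or 3 (0.0534 to 0.0998), Acly without replicate 1 or 3 of either tissue (0.0676 to 0.133) and Mylip without tumour replicate 1 or lymph node replicate 1 or 2 (0.0529 to 0.0671).

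Under the KO label 8 genes of B cells were higher in the tumour and 2 lower, where 17.5% and 13.4% of all genes tested were called. Insig1 (0.99 ± 0.10), Sc5d (0.84 ± 0.13), Cyp51 (0.78 ± 0.14), Sqle (0.74 ± 0.25), Idi1 (0.59 ± 0.16) and Hmgcs1 (0.39 ± 0.10) were among the higher ones. Idi1 thus passed in opposite directions under the 2 labels. T cell markers were higher in the tumour group here, at 127 to 138 CPM against 29.8 to 32.7 CPM in lymph node B cells. The amounts computed above for Hmgcs1, Cyp51 and Insig1, which take this signal as Treg RNA, concern the same tumour libraries. The part of the T cell markers was not tested.

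Tregs were then set against B cells of the same tissue under the WT label. In the lymph node 9 of the genes were higher in Tregs and 10 lower, near the shares of 33.1% and 30.5% of all genes tested. Elovl6 (1.90 ± 0.20), Fads1, the delta-5 desaturase (3.08 ± 0.46), Ebp (1.03 ± 0.11), Stard4 (0.95 ± 0.11) and Sc5d (0.61 ± 0.14) were higher in Tregs. Scd1 (-6.83 ± 0.07), Abca1 (-2.46 ± 0.07), Mylip (-2.41 ± 0.06) and Acaca (-1.21 ± 0.12) were lower. Abcg1 did not pass, at 39.2 to 42.2 CPM in Tregs and 41.9 to 48.7 CPM in B cells (-0.13 ± 0.09, edgeR, adjusted p = 0.194).

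In the tumour the count rose to 18 higher in Tregs and 6 lower, where 32.8% and 31.3% of all genes tested were called. Of the mevalonate genes 5 of 6 and of the later sterol genes 8 of 11 were higher in Tregs. Idi1 was 39.7, 38.1 and 40.7 CPM in Tregs against 5.75, 9.63 and 7.95 CPM in B cells (2.35 ± 0.16), and Cyp51 41.5, 50.5 and 59.1 CPM against 15.6, 16.6 and 12.7 CPM (1.75 ± 0.15). Elovl6 had the largest difference among the genes higher in Tregs, at 39.7, 46.2 and 48.9 CPM against 4.05, 4.82 and 2.79 CPM (3.54 ± 0.18, edgeR, adjusted p = 1.29e-10). The groups were clearly apart for all 3 genes. Groups without overlap were common here, at 10034 of 14623 genes tested. Scd1, at -7.25 ± 0.09, Abca1, at -5.65 ± 0.09, Mylip, at -3.84 ± 0.08, and Abcg1, at -1.09 ± 0.15, were all lower in Tregs. Melanoma markers were present in both groups, at 2652 to 2861 CPM in Tregs and 726 to 836 CPM in B cells, and cycling genes stood at 2838 to 2897 against 223 to 247 CPM. Macrophage and monocyte markers stood at 22.1 to 29.3 against 184 to 200.5 CPM, with 10 of 10 lower in Tregs. The part of these lists was not tested.

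SREBP targets and LXR targets can be set side by side in each comparison, as counts and medians of the single-gene fits. In Tregs of the tumour against the lymph node (WT label), 18 of 27 SREBP targets were higher and 0 lower, with a median log2 fold change of 0.70, and the 3 LXR targets had a median of -1.66, beside 0.00 over all genes tested. In B cells the same contrast gave 1 higher and 4 lower of 26 SREBP targets, with a median of 0.03, and -0.18 for the LXR targets. Of all genes tested, 21.4% were called higher and 19.9% lower in Tregs, and 15.7% and 14.3% in B cells. In tumour Tregs against tumour B cells the medians were 1.12 and -3.84, and in the lymph node 0.10 and -2.41. The LXR list has 3 genes, so its median is 1 gene's value.

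In the KO against WT comparisons both lists had medians near 0, apart from the LXR targets of tumour Tregs. In tumour Tregs 5 of 27 SREBP targets were called higher and 5 lower, and in lymph node Tregs 9 and 0. For B cells the counts were 9 and 3 of 26 (tumour) and 4 and 1 of 26 (lymph node). Over all genes tested, the shares were 27.3% and 27.2% in tumour Tregs and 13.8% and 11.5% in lymph node Tregs. In B cells these shares were 21.3% and 18.8% (tumour) and 11.0% and 10.1% (lymph node). The medians of the SREBP targets were 0.01, 0.11, -0.01 and 0.11. LXR targets had medians of 0.52, -0.01, 0.14 and 0.18, and in each comparison 1 or 2 of the 3 were called higher. In lymph node B cells 1 of the 3, Mylip, was called lower. All 4 medians over all genes lay between -0.03 and -0.01.

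**Figure D5:**
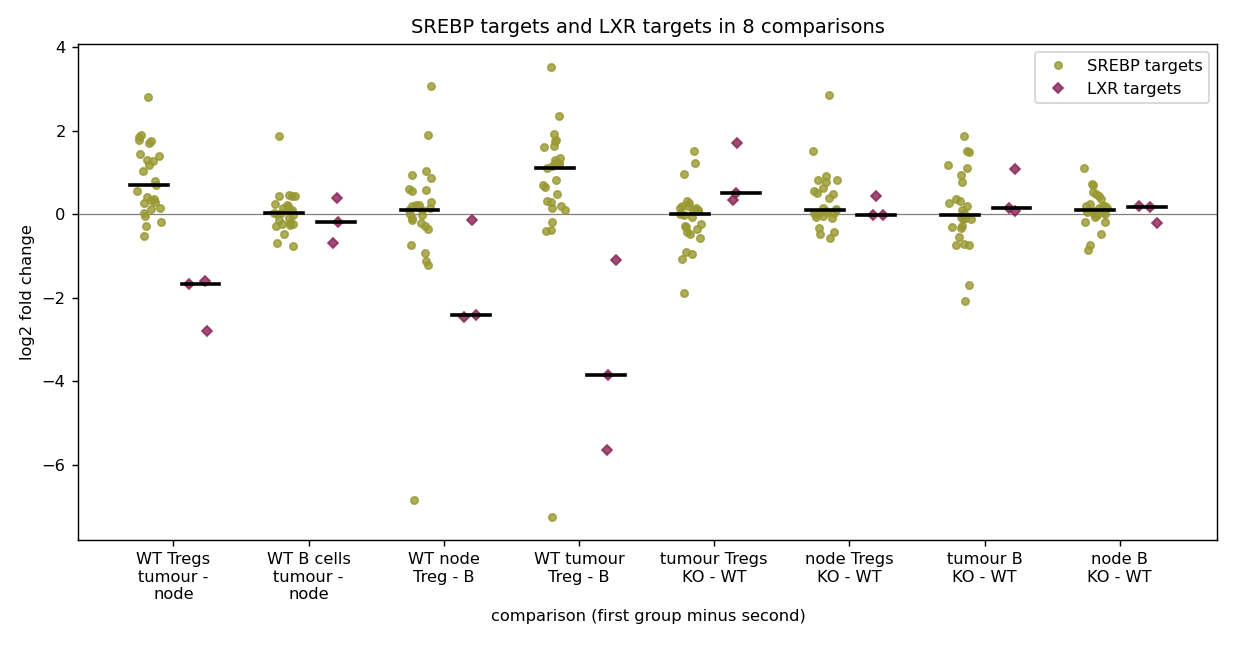
Log2 fold change of each SREBP target (circles) and LXR target (diamonds) in 8 comparisons, first group minus second, with the median of each list as a black bar. The lists part in tumour against lymph node Tregs (medians 0.70 and -1.66) and in Tregs against B cells of the tumour (1.12 and -3.84), while in the 4 KO against WT comparisons the SREBP medians lie between -0.01 and 0.11.

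The LXR targets responded unevenly to the genotype label. Mylip in tumour Tregs was 43.5, 43.2 and 47.2 CPM in libraries labelled KO against 12.8, 13.8 and 15.3 CPM in those labelled WT (1.71 ± 0.11, edgeR, adjusted p = 6.96e-16). In lymph node Tregs it was 58.4, 57.3 and 57.1 CPM against 41.1, 43.6 and 42.5 CPM (0.44 ± 0.07, adjusted p = 1.82e-05), and in lymph node B cells it was lower, at 195, 196 and 197 CPM against 227, 228 and 222 CPM (-0.21 ± 0.05, adjusted p = 0.00246). The groups did not overlap in any of these. After the B cell share, Mylip stands at 41.8 ± 2.18 against 13.7 ± 1.24 CPM in tumour Tregs and at 47.5 ± 0.50 against 39.9 ± 1.17 CPM in lymph node Tregs.

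Abcg1 rose in the tumour in both cell types. It was 18.8, 19.3 and 16.7 CPM against 14.0, 12.6 and 12.6 CPM in tumour Tregs (0.52 ± 0.14) and 60.8, 58.5 and 57.5 CPM against 32.5, 25.4 and 24.7 CPM in tumour B cells (1.09 ± 0.12; edgeR, adjusted p = 0.0022 and 8.18e-06). In the lymph node the differences were -0.01 ± 0.08 in Tregs and 0.18 ± 0.08 in B cells, and neither passed. Abca1 passed in lymph node B cells alone, at 204, 217 and 207 CPM against 179, 174 and 187 CPM (0.21 ± 0.05, edgeR, adjusted p = 0.00399). In tumour Tregs Abca1 was 6.68, 5.48 and 5.28 CPM against 4.52, 4.65 and 4.95 CPM (0.34 ± 0.24, adjusted p = 0.246), and the B cell share comes to 3.17 CPM and 0.343 CPM of these means. The remainders of Abca1 are 2.64 ± 0.82 CPM with the KO label against 4.36 ± 0.20 CPM with the WT label in tumour Tregs. In lymph node Tregs they are 21.5 ± 2.35 against 30.7 ± 3.95 CPM. Their difference between labels was not tested. The same subtraction left -1.94 CPM for Scd1 in lymph node Tregs labelled WT, so it can take away too much.

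Whether the genotype difference depended on the tissue was tested as an interaction, positive where the KO minus WT difference is larger in the tumour. In Tregs 3 genes were called higher and 8 lower, where 16.8% and 17.3% of all genes tested were called. Mylip (1.26 ± 0.13), Abcg1 (0.52 ± 0.15) and Srebf2 (0.32 ± 0.09) were the 3. All 8 lower ones were SREBP targets, among them Fads2 (-1.42 ± 0.42), Scd1 (-1.36 ± 0.20) and Scd2 (-1.07 ± 0.11), and also Idi1 (-1.01 ± 0.17), Msmo1 (-0.85 ± 0.23) and Hmgcs1 (-0.67 ± 0.12). For Cyp51 the interaction was 0.04 ± 0.14 and for Insig1 -0.29 ± 0.15, and neither passed (edgeR, adjusted p = 0.873 and 0.127). Abca1 did not pass either (0.35 ± 0.21, adjusted p = 0.204). Among the markers of this interaction, 7 of 7 melanoma and 4 of 4 cycling genes were called lower. Called higher were 7 of 9 stromal and endothelial and 4 of 8 B cell markers. The part of these lists was not tested.

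In B cells 6 genes were called higher and 1 lower, where 12.4% and 8.55% of all genes tested were called. Idi1 (1.31 ± 0.26), Abcg1 (0.90 ± 0.14), Cyp51 (0.79 ± 0.21), Sc5d (0.79 ± 0.24), Insig1 (0.76 ± 0.27) and Mylip (0.34 ± 0.09) had a larger KO minus WT difference in the tumour. Fads2 had a smaller one (-2.20 ± 0.63, edgeR, adjusted p = 0.0153), which was lost without WT-labelled tumour replicate 2 (-1.45, adjusted p = 0.0709) or WT-labelled lymph node replicate 2 (-1.94, adjusted p = 0.051). Abca1 did not pass (-0.15 ± 0.08, adjusted p = 0.233). Without both libraries that stand apart, 10 genes were higher and 0 lower. Among the markers of this interaction, 8 of 8 T cell and 4 of 4 cycling genes were called higher. Called lower were 4 of 10 macrophage and monocyte and 2 of 7 melanoma markers. The part of these lists was not tested.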

How the data were processed

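Stranded mRNA libraries were built from the RNA of sorted cells, per the labels' protocols. The tools named are fastp 0.23.4, STAR 2.5.3a and featureCounts, per the submitters' processing notes, and the builds named are GRCh38 and GRCm39; the table's coordinates lie on mouse chromosomes. The authors deposited raw counts per gene. Exon length stands in the same table. Columns were assigned to samples through their names (0 unmatched). Between 69.7 and 75.8% of counts from 1 to 10 were even, so a count need not be 1 independent fragment.

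Each comparison was fitted on its 6 libraries (interactions on 12) with edgeR 4.0.16 in R 4.3.3: TMM scaling, the package's filter on low counts, the two-sided quasi-likelihood F test, and Benjamini-Hochberg adjustment over all genes tested, with calls at 0.05. Fads1 passed the filter in no comparison within B cells, so 34 of the 35 genes were tested there and 35 elsewhere. Levels are CPM scaled by TMM over all 24 libraries, and RPKM divides them by exon length. Errors of fold changes are SE. The share of another cell type is the summed CPM of its markers in a library, divided by the mean sum in that cell type of the same tissue and label. Amounts and remainders computed from it use the mean level of that group. Their SD therefore leaves out the spread within that group, and no remainder was tested. Genes with full statistics were up to 5 per direction with the largest called change, a mean of 1 CPM or more and no overlap between groups (3 in interactions), plus the LXR targets; others were named for their role. The genes, lists and rules were chosen with earlier results of these data known. The procedure was tested on simulated data. Alternatives were DESeq2 1.42.0 (size factors and Wald test), upper-quartile scaling, no filter, all 24 libraries in the fit, a replicate block, leaving out libraries and, added after seeing the data, KO-labelled in place of WT-labelled libraries. The chi-square per gene between replicates ranged from 2.40 to 10.5, and errors cover the spread of these libraries only.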

Additional observations from a re-analysis of the deposited data

Results flagged for a closer look

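Several genotype differences depended on the tissue, by the interaction test in edgeR (log2 scale, tumour minus lymph node). In Tregs these were Mylip at 1.26, Abcg1 at 0.516, Srebf2 at 0.323, Fads2 at -1.424, Scd1 at -1.363 and Scd2 at -1.070. The B cell marker share of the Treg libraries, given beside Scd1 above, was 5.17% and 1.10% (KO and WT labels) in the lymph node. In the tumour it was 1.28% and 0.146%. In this interaction the B cell markers ran opposite to Scd1, with a median of 1.15, 4 of 8 called higher and 0 lower. Their part was not tested. In B cells the genes flagged were Idi1 at 1.306, Abcg1 at 0.899, Cyp51 at 0.794, Fads2 at -2.197 and Mylip at 0.341.

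Some genes moved in opposite directions in the 2 cell types of 1 tissue, in every library, and the difference between cell types was not tested. In the tumour, KO minus WT was -0.357 in Tregs and 1.502 in B cells for Idi1, -0.279 (not past the threshold) and 0.782 for Msmo1, and -0.902 and 0.281 for Scd2. In the lymph node it was 0.439 in Tregs and -0.208 in B cells for Mylip.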

How the results depend on the processing

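Of the counts of called members under alternatives, 258 stayed within 1.5 times the main count and 22 did not. Members called lower numbered 1 in lymph node Tregs with upper-quartile scaling (0 to 1 with a library left out, 0 in the main analysis), 5 in tumour B cells with upper-quartile scaling and 5 with all 24 libraries in the fit (1 to 3 with a library left out, 3 in the main analysis), and 1 in lymph node B cells with the DESeq2 Wald test (1 to 2 with a library left out). With KO-labelled libraries in the tissue comparison, 6 members were lower in Tregs, and 8 higher and 2 lower in B cells; leaving out a library gave 2 to 6 lower in WT-labelled B cells. Without both tumour B cell libraries that stand apart, the B cell interaction gave 10 higher and 0 lower (0 to 2 lower with 1 library left out). Of the values of single genes 1184 kept direction and call, 46 lost a call, 4 gained one and 10 changed sign. Abca1 and Abcg1 in lymph node Tregs ranged from -0.0995 to 0.0688 and from -0.0746 to 0.0721 with a library left out, Abca1 in tumour B cells was -0.0018 with upper-quartile scaling, and the tissue difference in B cells under the KO label was -0.33 for Fads2, 0.59 for Idi1, 0.19 for Abcg1 and 0.15 for Mylip. The cause of these changes was not tested.

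Same-numbered libraries did not deviate together (correlations from -0.123 to 0.0191 over 24 pairs). Some of these pairs set KO against WT and cannot share an animal, and technical spread would hide a shared animal. The check therefore cannot decide whether the numbers pair the libraries, and no pairing was modelled in the main fits. With a replicate block the members called higher and lower under the KO label were 10 and 6 (tumour Tregs), 13 and 0 (lymph node Tregs), 12 and 3 (tumour B cells) and 6 and 2 (lymph node B cells). Depth limits the sterol genes under 1 RPKM.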

Other observations

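Another 36 genes of sterol and fatty acid metabolism, chosen with earlier results known, gave these counts in the genotype comparisons: 8 higher and 10 lower of 35 in tumour Tregs, 6 and 4 of 35 in lymph node Tregs, 5 and 7 of 32 in tumour B cells, and 2 and 4 of 33 in lymph node B cells. Over all genes tested, 27.3% and 27.2%, 13.8% and 11.5%, 21.3% and 18.8%, and 11.0% and 10.1% were called in the same order. Fabp5, a fatty acid carrier, and Erlin2, an endoplasmic reticulum protein of sterol control, were lower with the KO label in all 4, beside 1.84% of all genes tested in all 4, and were chosen after their values were seen. Fabp5 was at -0.47 ± 0.07, -0.26 ± 0.06, -0.58 ± 0.15 and -0.51 ± 0.16, and Erlin2 at -1.19 ± 0.14, -0.47 ± 0.11, -0.53 ± 0.15 and -0.33 ± 0.11, in that order. Acsl3, an acyl-CoA synthetase of lipid droplets, was lower in tumour Tregs (-0.91 ± 0.19) and higher in lymph node Tregs (0.77 ± 0.16), tumour B cells (0.99 ± 0.18) and lymph node B cells (0.39 ± 0.13). Lpin1, a phosphatidate phosphatase, was higher in Tregs of both tissues, at 1.21 ± 0.11 and 0.50 ± 0.10.

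In tumour against lymph node Tregs labelled WT, the malic enzyme gene Me1 rose by 2.64 ± 0.45, and it was chosen after its value was seen. The melanoma marker signal of the tumour libraries named above stands beside it, and its part was not tested.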
